A study of Homo sapiens with 12 samples.

Results

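The genes described here encode SR proteins, TRA2 proteins and hnRNP proteins, the main families of sequence-specific splicing regulators. They were taken by name: rows whose symbol is SRSF followed by a number, rows whose symbol begins with HNRNP and a further letter, and TRA2A and TRA2B, where the mean over 12 libraries was at least 1 FPKM (fragments scaled to transcript length and library size). Of 23615 rows, 40 carried such a name and 36 passed the level, among 12183 rows in all that did. The 36 were 14 SR and TRA2 genes, 19 HNRNP genes named for a protein, and 3 other HNRNP-named rows: HNRNPA1P10, a processed pseudogene of HNRNPA1, HNRNPU-AS1, which lies antisense at the HNRNPU locus, and HNRNPUL2-BSCL2, a read-through of a pair of neighbouring genes. The 4 rows under the level were HNRNPA1P33 (0.0992 FPKM), HNRNPA3P1 (0.0265 FPKM), HNRNPCL1 (2.68e-06 FPKM) and HNRNPKP3 (listed at 0). The lowest rows above it were SRSF12 at 6.12 FPKM and HNRNPA1L2 at 11.7 FPKM, so no row lay near 1 FPKM.

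SR proteins carry RNA recognition motifs and a domain rich in arginine and serine, and many bind exonic enhancers and recruit the spliceosome to nearby splice sites. The hnRNP proteins coat nascent transcripts, and several of them bind silencers in exons and introns and oppose SR proteins at the same splice sites. Many genes of both families limit their own expression: their protein promotes inclusion of a poison exon or splicing in the 3′ UTR, which sends the transcript to nonsense-mediated decay. Decapping by Dcp2 is one of the steps by which cytoplasmic mRNAs are degraded.

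Poly(A) RNA came from HEK293T, a human kidney epithelial line that expresses SV40 large T antigen, at passages 10 to 20. Cells received CP25, a macrocyclic inhibitor of Dcp2, at 2 μM, or an equal volume of the peptide storage buffer as vehicle, for 18 h. Transcription was then blocked with 5 μg/mL actinomycin D, and RNA was taken after 2 h or at 0 h. This gave 4 groups of 3 libraries each, CP25 and vehicle at 2 h and CP25 and vehicle at 0 h. All 12 libraries come from 1 cell line, and since nothing in the labels says that replicates were grown apart, a p-value reflects only how these libraries scatter, which could be technical scatter. In bulk RNA, fewer cells of a kind and less RNA per cell cannot be told apart.

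From the smallest step between FPKM values, the libraries at 2 h held an estimated 22.1 to 29.4 × 10⁶ fragments and those at 0 h 13.3 to 22.3 × 10⁶. Genes typical of this line were present in every library, VIM at 163 to 275 FPKM, LIN28B at 43.3 to 53.4 FPKM, KRT18 at 30.7 to 40.9 FPKM, CDH2 at 25.5 to 33.5 FPKM, NEFM at 6.52 to 18.2 FPKM and KRT8 at 2.08 to 5.32 FPKM, while PAX2, of the developing kidney, was low at 0.616 to 2.02 FPKM. Of the markers of other cells, KRT5 was listed at 0 in all 12 libraries, and PTPRC, PECAM1 and ALB did not exceed 0.0097, 0.0165 and 0.096 FPKM. The others were detected in every library: COL1A1 stood at 2.55 to 3.83 FPKM, within the range of KRT8. MUC1 stood at 0.435 to 1.30 FPKM, CD68 at 0.428 to 1.14 FPKM and EPCAM at 0.271 to 0.943 FPKM. Across all genes, CP25 against vehicle gave 1 call of 11745 genes at 2 h and none of 12365 at 0 h (limma, Benjamini-Hochberg adjusted p under 0.05).

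The windows around the annotated transcription starts, 250 bases before to 50 after, are shown in short stretches because most HNRNP mRNAs stood higher after the block and most SR and TRA2 mRNAs were near level. RefSeq (build GRCh38.p14) gave 44 windows for 31 of the 36 genes, with no entry for SRSF2, TRA2A, HNRNPA1, HNRNPA1P10 and HNRNPU-AS1. The motifs searched, GCCATTT, the CCAAT box and the TATA box (TATAAA), were chosen after these sequences had been read. Each was searched on both strands, no motif contains another, and a gene counted when any of its windows held the motif. GCCATTT is in capitals in these stretches at the start of 2 SR and 4 HNRNP genes, printed 5′ to 3′ on the strand of the gene.
SRSF1, chr17:58007230-58007256, minus strand: tgataaaggcGCCATTTtggaggggcc
SRSF3, chr6:36594354-36594380, plus strand: gcggtggtccGCCATTTcgtggacgcc
HNRNPC, chr14:21269411-21269437, minus strand: agactcggggGCCATTTtgtgaagaga
HNRNPD, chr4:82373971-82373997, minus strand: tcttccgtcgGCCATTTtaggtggtcc
HNRNPR, chr1:23344268-23344294, minus strand: tggcgcgcgcGCCATTTctagtcgttt
HNRNPUL1, chr19:41264359-41264385, plus strand: ggtggcggcgGCCATTTtgagccgctg

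In these 6 genes the motif began between base -3 and base 16, where base 1 is the first transcribed base. The other HNRNP genes that held it are not printed. HNRNPH1 held it at bases -2 and -3 in separate windows. As the reverse complement it lay at base 23 in HNRNPM and at base -96 in HNRNPH3. GCCATTT was present for 9 of the 31 genes, 2 of 12 SR and TRA2 genes and 7 of 18 HNRNP genes, against 5.39% of all 27305 genes of the table and 6.28% of 8933 genes of at least 1 FPKM. CCAAT divided the families more sharply: 15 of 18 HNRNP genes held it (83.3%), against 2 of 12 SR and TRA2 genes (16.7%, SRSF3 and SRSF8) and 44.1% of the expressed genes. The stretches below show it in capitals for 4 HNRNP genes, the last of them with its reverse complement ATTGG.
HNRNPA3, chr2:177212666-177212692, plus strand: cgcccccttcCCAATtcgctcctcccc
HNRNPK, chr9:83980298-83980324, minus strand: tggcctcgggCCAATcgcttcgccctc
HNRNPC, chr14:21269480-21269506, minus strand: aaacgcacagCCAATaggaagattctc
HNRNPA2B1, chr7:26200831-26200857, minus strand: ccttcccgccATTGGcggcggataggg

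TATAAA was found for 6 of the 31 genes (19.4%, against 7.86% of expressed genes). A match describes the letters of a window and is not a measured binding site, and the groups are small.

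How the mRNAs of these regulators stood after 2 h without transcription was examined first. The HNRNP mRNAs were mostly higher at 2 h than at 0 h as a share of the library: their median log2 ratio of FPKM + 1, 2 h over 0 h, was 0.34 in CP25 and 0.27 in vehicle over 19 genes. The 14 SR and TRA2 mRNAs were near level, with medians of 0.01 in CP25 and -0.01 in vehicle, and all 12183 genes had medians of -0.16 in CP25 and -0.18 in vehicle. The level left at 2 h ran from 77.6% (HNRNPF) to 147% (HNRNPA1P10) in CP25 and from 77.4% (SRSF4) to 147% (HNRNPA1P10 and HNRNPA1) in vehicle. Because FPKM is relative to the library total, a value above 100% is a gain relative to the average transcript, and the values say nothing of the absolute amount. The 2 h and 0 h values came in separate tables, and whether these share a scale is not given in the sources used here. These ratios are therefore given without a test.

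**Figure D1:**
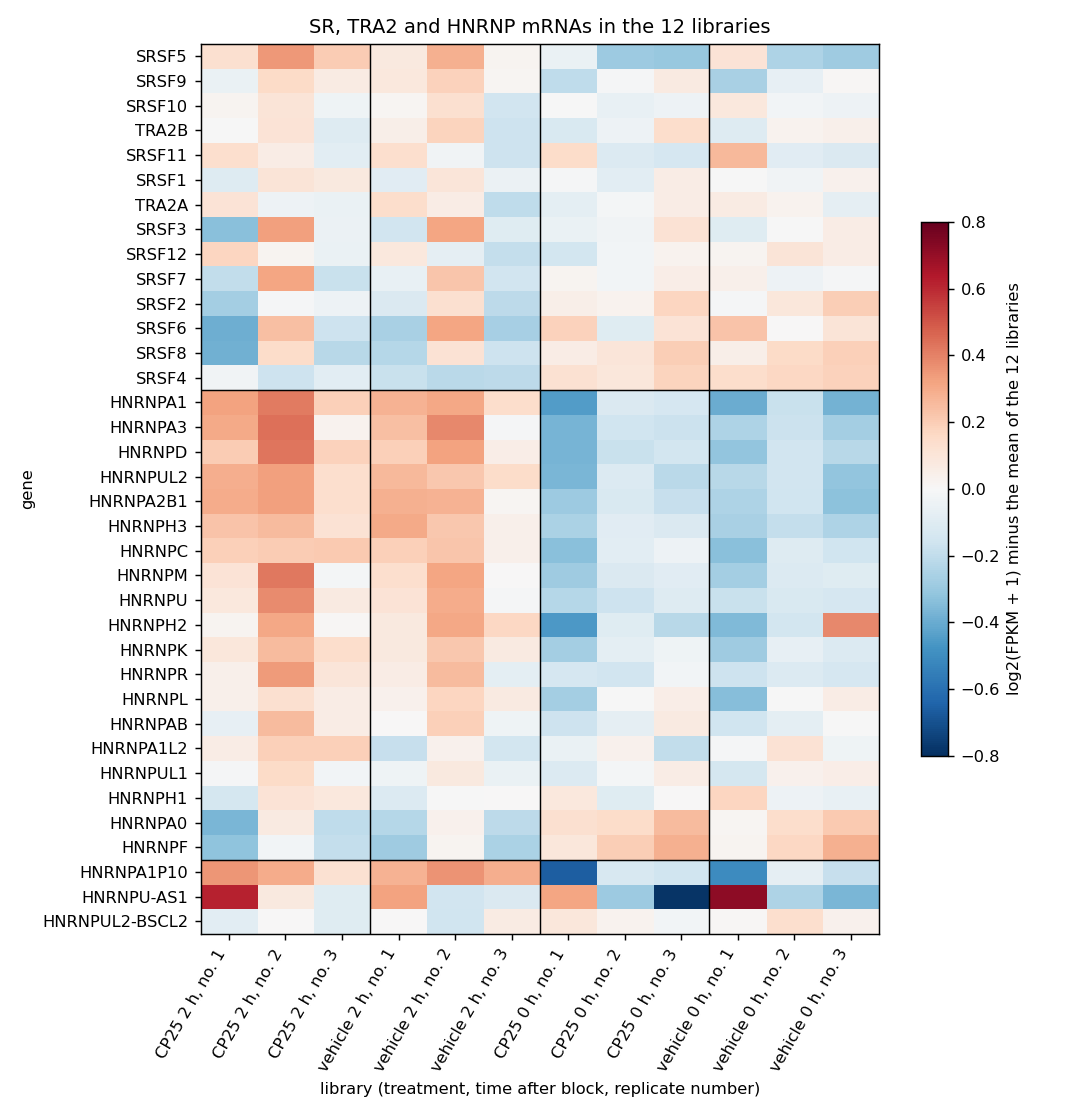
Levels of the 36 members in each library, as log2(FPKM + 1) minus the member's mean over the 12 libraries (colour scale, ending at -0.8 and 0.8), with libraries in columns and genes in rows, ordered within each class by the 2 h over 0 h ratio. Most HNRNP rows are red in the 6 libraries at 2 h and blue in the 6 at 0 h, and the libraries numbered 2 at 2 h are redder than their neighbours.

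In CP25 27 of the 36 members had a ratio above 0, where 34.1% of all genes did, and in vehicle 21 of 36 did, where 32.0% of all genes did. Most members are abundant, and of all genes of at least 100 FPKM 80.0% were above 0 in CP25 and 81.4% in vehicle. No member had a log2 ratio below -1, which 7.22% of genes had in CP25 and 7.26% in vehicle. Among the HNRNP genes 17 of 19 in CP25 and 15 of 19 in vehicle were above 0, and among the SR and TRA2 genes 8 of 14 and 5 of 14. These counts depend on the scale of the 2 tables. When every library was centred on its own median over genes, the median of all genes moved to 0.17 in CP25 and in vehicle. Of all genes, 64.1% in CP25 and 64.3% in vehicle were then above 0. So were 14 of 14 SR and TRA2 genes in CP25 and 13 of 14 in vehicle. Of the HNRNP genes, 17 of 19 in CP25 and 19 of 19 in vehicle were above 0 on this scale. Relative to the median of all genes, a distance that this centring left the same, the HNRNP median lay 0.50 higher in CP25 and 0.45 higher in vehicle, and the SR and TRA2 median 0.17 and 0.16 higher. The SR and TRA2 median lay below the HNRNP median, by 0.32 in CP25 and 0.29 in vehicle. Centring shifts every gene of a library alike, so it could not change any of these distances.

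**Figure D2:**
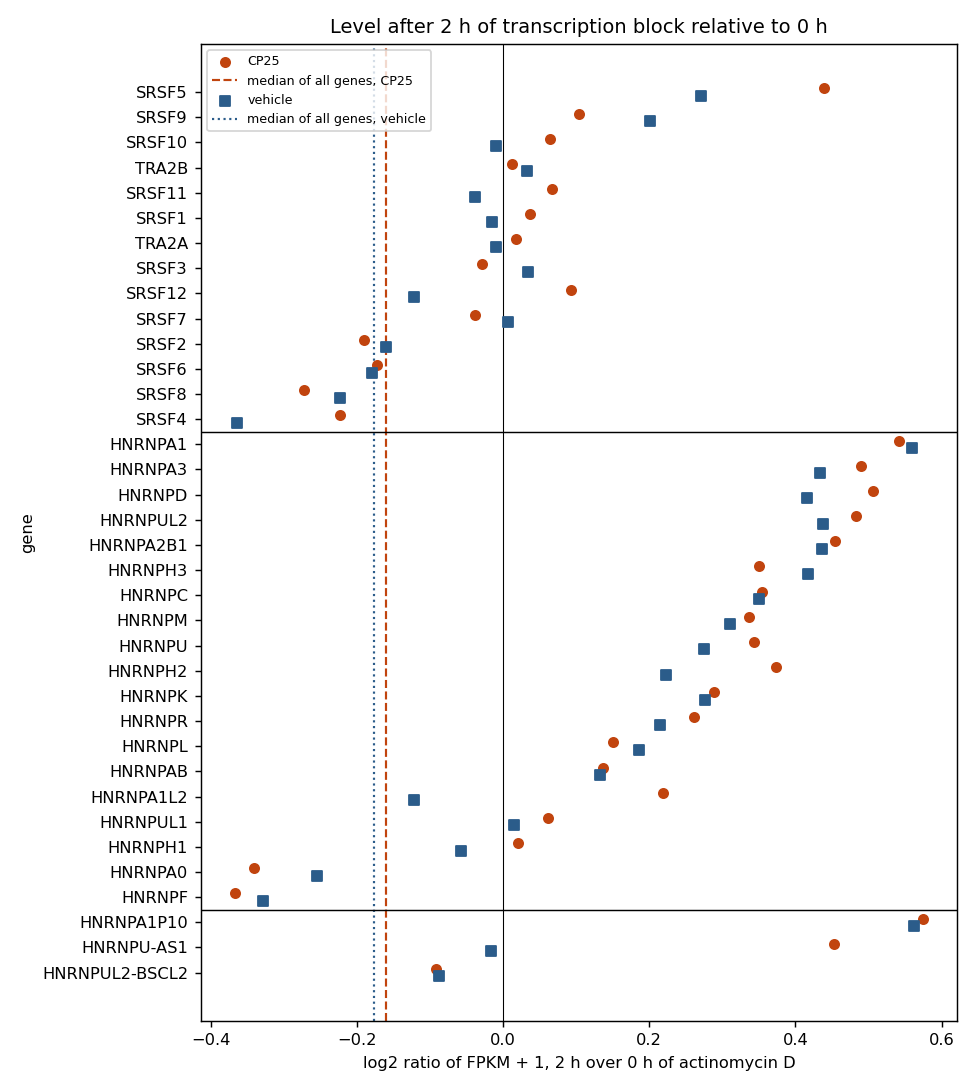
Log2 ratio of FPKM + 1 at 2 h over 0 h (x axis) for each member (rows), circles for CP25 and squares for vehicle, means of 3 libraries each, with the median of all genes as a dashed and a dotted line. Except for SRSF5 and SRSF9, the SR and TRA2 genes lie below 0.1 in both treatments, whereas 14 HNRNP genes lie above 0.1 in both.

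Among the SR proteins, SRSF4, SRSF8 and SRSF6 had the lowest ratios. SRSF4 (GRCh38 chr1:29147743-29181987, minus strand, protein-coding), a large SR protein with a pair of RNA recognition motifs, had 89.3, 81.1 and 85.9 FPKM in CP25 at 2 h, against 99.2, 97.0 and 103 FPKM in CP25 at 0 h, and 80.4, 78.5 and 78.9 FPKM in vehicle at 2 h, against 101, 103 and 104 FPKM in vehicle at 0 h. SRSF4 was the only member whose 3 libraries at 2 h all lay below the 3 at 0 h in both treatments, with 85.5% left in CP25 and 77.4% in vehicle. Of all genes, 39.5% were lower without overlap in both treatments.

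SRSF8 is an SRSF2-like protein, and the transcript used here for its gene has 1 exon. In CP25 it had 12.3, 18.1 and 13.9 FPKM at 2 h, against 17.1, 17.5 and 18.8 FPKM at 0 h. In vehicle it had 13.8, 17.8 and 14.4 FPKM at 2 h, against 16.9, 18.2 and 18.7 FPKM at 0 h. SRSF6, a regulator of alternative exons related to SRSF4, had 69.2, 108 and 81.0 FPKM in CP25 at 2 h, against 104, 85.3 and 98.3 FPKM at 0 h, and 76.0, 114 and 75.8 FPKM in vehicle at 2 h, against 107, 91.5 and 97.9 FPKM at 0 h. For both genes the library numbered 2 was the high one at 2 h in each treatment. For SRSF8 it reached into the 0 h range, and for SRSF6 it lay above every library at 0 h, while the other libraries at 2 h lay below every one at 0 h.

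SRSF5 had the highest ratio of the SR genes. This protein of the SRSF4 type had 189, 219.8 and 199.6 FPKM in CP25 at 2 h, against 167, 141 and 139.9 FPKM at 0 h, and 183, 211 and 176 FPKM in vehicle at 2 h, against 187, 145 and 142 FPKM at 0 h. That is 136% left in CP25, without overlap, and 120.2% in vehicle, where the library numbered 1 at 0 h, at 187 FPKM, reached into the 2 h range. SRSF9 and SRSF10 followed.

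SRSF9, the most abundant SR mRNA, had 299, 345 and 324 FPKM in CP25 at 2 h, against 268, 307 and 326 FPKM at 0 h, and 329, 352 and 314 FPKM in vehicle at 2 h, against 258, 296 and 312 FPKM at 0 h. The groups overlapped in CP25 (107% left) and did not in vehicle (115%). SRSF10, known as a repressor of splicing when dephosphorylated, stood at 138 ± 6.70 FPKM in CP25 at 2 h, against 132 ± 2.44 FPKM at 0 h, and at 135 ± 13.3 FPKM in vehicle at 2 h, against 135 ± 6.31 FPKM at 0 h (SD, n = 3). SRSF2, a component of nuclear speckles and the second most abundant, had 183, 219.5 and 214 FPKM in CP25 at 2 h, against 228, 226 and 249 FPKM at 0 h, and 203, 241 and 191 FPKM in vehicle at 2 h, against 219, 235 and 254 FPKM at 0 h. Its libraries did not overlap in CP25 (87.8% left) and overlapped in vehicle (89.7%).

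The remaining SR and TRA2 genes were close to level. SRSF1, the prototype of the family, stood at 103% in CP25 and 99.1% in vehicle, SRSF3, the smallest SR protein and an mRNA export adaptor, at 99.7% and 103%, and SRSF7, another export adaptor, at 98.7% and 101%. TRA2A and TRA2B, which bind GAA-rich exonic enhancers, stood at 101% each in CP25 and at 99.8% and 103% in vehicle. SRSF11, which binds U2AF, stood at 105% in CP25 and 97.0% in vehicle. SRSF12, the least abundant member and reported to oppose other SR proteins, stood at 108% in CP25 and 90.9% in vehicle, from 5.22 to 7.012 FPKM over the 12 libraries.

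In the HNRNP class a large group stood higher at 2 h and a small one lower. HNRNPA1 (GRCh38 chr12:54280193-54287088, plus strand, protein-coding) encodes an abundant silencer-binding protein that opposes SRSF1. It had 1642, 1753 and 1501 FPKM in CP25 at 2 h, against 964, 1213 and 1198 FPKM at 0 h, and 1597, 1628 and 1452 FPKM in vehicle at 2 h, against 1000.4, 1163 and 1013 FPKM at 0 h. It was the most abundant member and stood at 145% in CP25 and 147% in vehicle, with no overlap in either.

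HNRNPA2B1, a close relative of HNRNPA1, had 966, 988 and 862 FPKM in CP25 at 2 h, against 641, 722 and 691 FPKM at 0 h, and 957, 953 and 793 FPKM in vehicle at 2 h, against 661, 705 and 626 FPKM at 0 h. HNRNPA3, of the same A/B type, had 329.6, 364 and 272 FPKM in CP25 at 2 h, against 206, 239.8 and 238 FPKM at 0 h, and 316, 349 and 265 FPKM in vehicle at 2 h, against 225, 237 and 222 FPKM at 0 h. HNRNPD, or AUF1, which binds AU-rich elements and takes part in the decay of mRNAs that carry them, had 480.1, 562 and 474 FPKM in CP25 at 2 h, against 321, 368 and 377 FPKM at 0 h, and 475, 521 and 432 FPKM in vehicle at 2 h, against 335, 374 and 358 FPKM at 0 h. The groups of these 3 genes did not overlap in either treatment, and the levels left were 137% and 136% for HNRNPA2B1, 141% and 136% for HNRNPA3, and 142% and 134% for HNRNPD, in CP25 and in vehicle.

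In CP25 15 members were higher at 2 h in every library than at 0 h in any, where 15.5% of all genes were, and in vehicle 13 were, where 15.0% of all genes were. In both treatments 12 were, where 11.6% of all genes were. These 12 were HNRNPA1, HNRNPA2B1, HNRNPA3, HNRNPC, HNRNPD, HNRNPH3, HNRNPK, HNRNPM, HNRNPR, HNRNPU, HNRNPUL2 and the pseudogene HNRNPA1P10. No SR or TRA2 gene was among them. HNRNPC, which binds uridine tracts, stood at 127% in CP25 and in vehicle, HNRNPK, which binds poly(C), at 122% and 121%, HNRNPM at 127% and 124%, and HNRNPU, a nuclear scaffold protein, at 128% and 122%.

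HNRNPF, HNRNPA0 and HNRNPH1 were lowest. HNRNPF, which binds G-tracts, had 112, 138 and 122 FPKM in CP25 at 2 h, against 149, 160.3 and 170.1 FPKM at 0 h, and 115, 142 and 117 FPKM in vehicle at 2 h, against 142, 157 and 170.4 FPKM at 0 h. HNRNPA0, a single-exon gene of the A/B type, had 59.7, 81.2 and 66.9 FPKM in CP25 at 2 h, against 84.3, 85.6 and 92.2 FPKM at 0 h, and 65.8, 79.1 and 66.7 FPKM in vehicle at 2 h, against 78.1, 85.1 and 89.2 FPKM at 0 h. In CP25 neither gene's groups overlapped, and in vehicle the library numbered 2 at 2 h reached the lowest library at 0 h in both.

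The relatives of HNRNPF differed from it. HNRNPH1 had 395, 469 and 461 FPKM in CP25 at 2 h, against 461, 407 and 436 FPKM at 0 h, and 404, 435 and 436 FPKM in vehicle at 2 h, against 489, 423 and 418 FPKM at 0 h. It overlapped in both treatments (102% left in CP25, 95.9% in vehicle), while HNRNPH3 stood at 128% and 134% and HNRNPH2 at 130.3% and 115%. Lower at 2 h without overlap were 4 members in CP25 (HNRNPF, HNRNPA0, SRSF4 and SRSF2), where 44.0% of all genes were lower, and 1 in vehicle (SRSF4), where 46.0% were.

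Abundant mRNAs as a class stood high after the block, and most members are abundant. Among 828 genes of at least 100 FPKM the median log2 ratio was 0.22 in CP25 and 0.24 in vehicle, against -0.33 and -0.36 among 5613 genes of 1 to 10 FPKM. The 15 HNRNP genes of at least 100 FPKM had medians of 0.34 in CP25 and 0.28 in vehicle, above the medians of that level in both. The 9 SR and TRA2 genes of at least 100 FPKM had medians of 0.04 in CP25 and -0.01 in vehicle, below them. At this level 14 of 15 HNRNP genes were above 0 in CP25 and 13 in vehicle. Of the 9 SR and TRA2 genes 6 and 4 were, where 80.0% and 81.4% of the 828 genes were. Among 5742 genes of 10 to 100 FPKM the medians were -0.08 in CP25 and -0.09 in vehicle, and 4 HNRNP genes there had 0.30 and 0.05 and 4 SR and TRA2 genes -0.20 in each. None of these distances was tested. Over the 33 protein-coding SR, TRA2 and HNRNP members, the mean of the 2 ratios had a Spearman correlation of 0.50 with log2 level, against 0.45 over 10758 genes. This describes genes that share the same libraries, and level is part of both quantities.

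**Figure D3:**
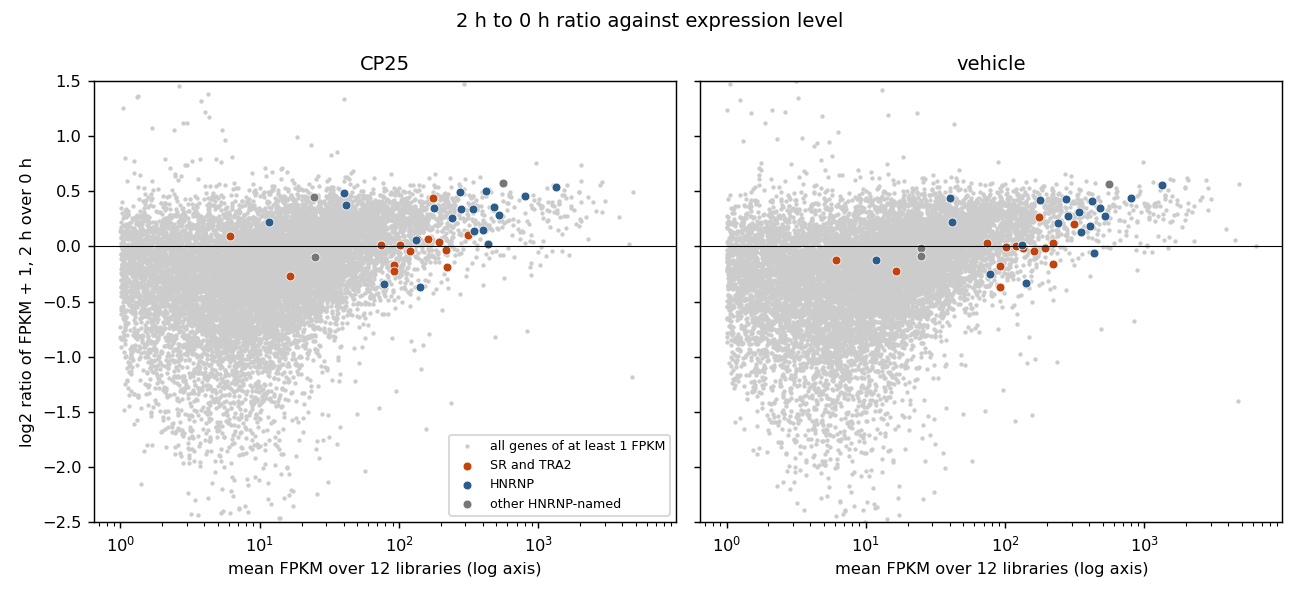
Log2 ratio of FPKM + 1 at 2 h over 0 h (y axis) against mean FPKM over 12 libraries (log x axis) in CP25 (left) and vehicle (right), with all genes of at least 1 FPKM in grey. The y axis ends at -2.5 and 1.5 and leaves out 54 genes in CP25 and 52 in vehicle, and the SR and TRA2 points above 100 FPKM mostly lie under the HNRNP points of similar level.

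The families also differ in annotated structure (GENCODE 29, protein-coding genes of at least 1 FPKM). A transcript annotated for nonsense-mediated decay was present for 14 of 14 SR and TRA2 genes and 11 of 19 HNRNP genes, against 44.0% of 10846 genes. Transcripts with a retained intron were annotated for 11 of 14 and 13 of 19, against 58.4%. Exons and 3′ UTRs were taken from 1 transcript chosen per gene. The median number of exons was 6 in SR and TRA2 genes and 11 in HNRNP genes, against 9 over all. The median 3′ UTR was 1672 and 811 bases, against 1156 bases over all. Every SR and TRA2 gene and 15 of 19 HNRNP genes had at least 1 ATTTA in the 3′ UTR, the core of AU-rich elements, which 28.9% of all genes lacked.

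Across the 33 members the ratio had a Spearman correlation of 0.56 with the number of exons, against 0.15 over 10758 genes, and of -0.43 with ATTTA per kilobase of 3′ UTR, against 0.09. HNRNPA0, with a low ratio, has 1 exon and 22 ATTTA in a 3′ UTR of 7498 bases, and HNRNPF, also low, has 3 exons, while HNRNPM, with a high ratio, has 16 exons and no ATTTA. Other members went the other way. HNRNPUL1 has 15 exons and no ATTTA at a mean ratio of 0.04, and HNRNPH1 has 13 exons at -0.02. HNRNPH2 has 2 exons at 0.30, and HNRNPU has 11 ATTTA at 0.31. These correlations are descriptions over related genes, in which class, level and exon number move together. Within the HNRNP class the 11 genes with an annotated decay transcript had a median ratio of 0.34 in CP25 and 0.28 in vehicle, and the 8 without one had 0.29 and 0.18.

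Other splicing genes give the scale. The lists of SR-related proteins, other hnRNP-type proteins, other regulators, core spliceosome subunits and kinases of SR proteins were put together with earlier results of these data known, and they are described by counts. The 24 SR-related genes had a median of -0.25 in CP25 and -0.30 in vehicle, with 6 and 4 above 0, and the 16 other hnRNP-type genes, such as PTBP1 (77.0% left in CP25, 77.4% in vehicle) and SYNCRIP (121.6% and 115%), had -0.12 and -0.17. Core spliceosome genes, 41 of them, had 0.016 in CP25 and -0.0037 in vehicle, with SNRPA1 at 142% and 141%, and 27 other regulators had -0.02 and -0.13. The 9 kinases and importers of SR proteins had the lowest medians, -0.50 in CP25 and -0.49 in vehicle. CLK1, which phosphorylates SR proteins in the nucleus, was left at 17.9% in CP25 and 14.5% in vehicle, and SRPK1, the cytoplasmic SR kinase, stood at 112% and 116%. These lists thus ran from below to near the SR and TRA2 medians, and each was below the HNRNP median in both treatments. The lists were not split by level, although ratios were higher among abundant genes. All genes of at least 100 FPKM had medians of 0.22 in CP25 and 0.24 in vehicle, and 15 HNRNP genes reached that level. How much of the distance between the lists and the HNRNP genes goes with level was not tested.

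CP25 was then compared with vehicle at each time, which bears on whether inhibition of Dcp2 changes the level of these mRNAs. None of the 36 members was called higher or lower in CP25 at 2 h or at 0 h, where 0.00851% of all genes were called at 2 h and 0.0% at 0 h (limma, Benjamini-Hochberg adjusted p under 0.05). At an unadjusted p under 0.05, 1 member passed at 2 h (HNRNPA1L2) and 0 at 0 h, and over all genes 45 were higher and 42 lower at 2 h and 43 higher and 45 lower at 0 h. The median log2 change of the members was 0.036 at 2 h and -0.0037 at 0 h, against 0.0056 and -0.0036 for all genes. With the replicate number as a block, 3 members at 2 h and 1 at 0 h passed an unadjusted p under 0.05 and none an adjusted one. Over all genes the block gave 428 higher and 386 lower at 2 h, and 323 and 534 at 0 h, at that unadjusted p.

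**Figure D4:**
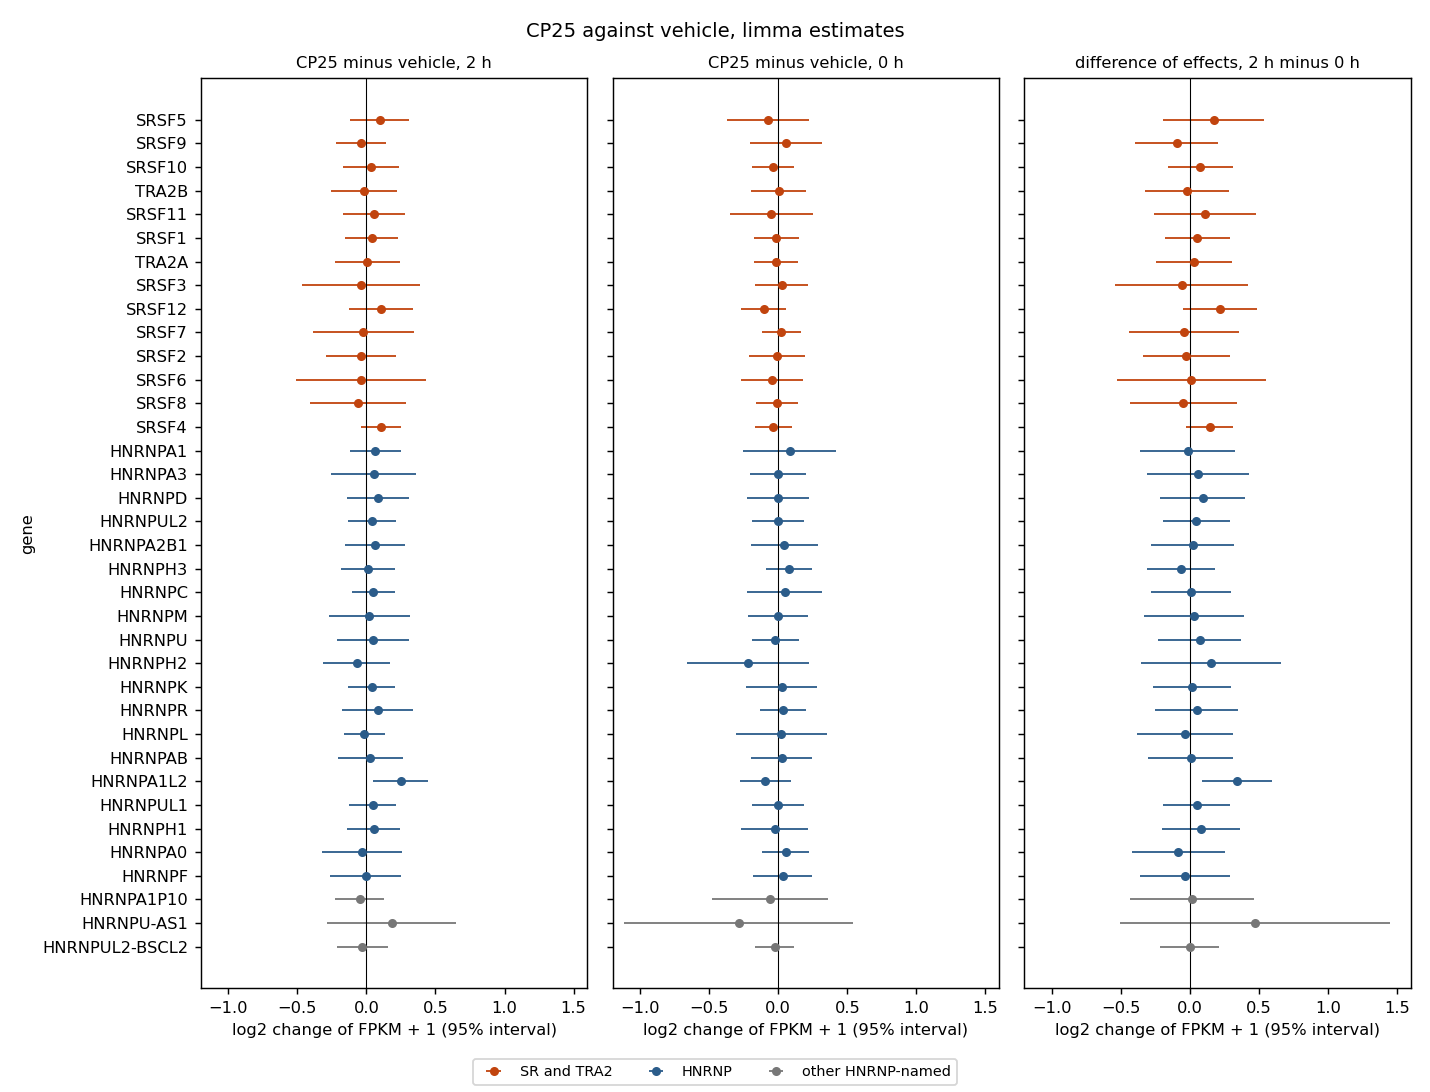
Log2 change of FPKM + 1, CP25 minus vehicle, at 2 h (left) and at 0 h (middle), and the difference of these changes (right), with 95% intervals from limma (x axes, 6 libraries for each time and 12 for the difference) for each member (rows). Intervals cross 0 for every member except HNRNPA1L2 at 2 h and in the difference.

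The intervals bound the size of any change. At 2 h the 95% interval excluded a change of 1.5-fold in either direction for 35 of 36 members and of 1.25-fold for 26. At 0 h it excluded 1.5-fold for 34 and 1.25-fold for 29. With the block, 1.5-fold was excluded for 36 of 36 at each time and 1.25-fold for 34 of 36 at each time. By the pairing rule given below the numbers paired the libraries at 2 h and not at 0 h, so the block has that basis only at 2 h. The member with the widest interval was HNRNPU-AS1, at -1.12 to 0.54 at 0 h.

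HNRNPA1L2 (GRCh38 chr13:52642425-52643796, plus strand), a single-exon copy of HNRNPA1, had the smallest p at 2 h. It had 12.2, 13.5 and 13.5 FPKM in CP25, against 10.2, 12.025 and 10.5 FPKM in vehicle, with no overlap, and a log2 change of 0.25 (95% interval 0.05 to 0.44, limma adjusted p = 1.00). At 0 h it had 11.3, 11.98 and 10.1 FPKM in CP25, against 11.6, 12.8 and 11.4 FPKM in vehicle, a change of -0.09. Its transcript is nearly the same sequence as that of HNRNPA1, which was far more abundant, so how the counting divided shared fragments makes its value uncertain. SRSF4 had a log2 change of 0.11 at 2 h (95% interval -0.04 to 0.25, adjusted p = 1.00, limma), and its libraries in CP25, the lowest at 81.1 FPKM, all lay above those in vehicle, the highest at 80.4 FPKM. These were the 2 members higher without overlap in CP25 at 2 h, where 2.46% of all genes were, and 0 were lower, where 1.76% of genes were. At 0 h 0 members separated in either direction, where 1.21% of genes were higher and 2.89% lower.

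The other members with the smallest p in each direction differed little. At 2 h these were HNRNPH2, at 44.5 ± 5.49 FPKM in CP25 and 46.6 ± 3.88 FPKM in vehicle (SD, n = 3), and HNRNPA1P10, at 651 ± 53.6 FPKM in CP25 and 672 ± 21.4 FPKM in vehicle. HNRNPA1P10 changed sign when the CP25 library numbered 3 at 2 h was left out (log2 change 0.02, against -0.05 with it). At 0 h these were HNRNPH3, at 159 ± 9.65 FPKM in CP25 and 150.3 ± 3.89 FPKM in vehicle, HNRNPA0, at 87.4 ± 4.23 and 84.2 ± 5.62 FPKM, and SRSF12, at 5.89 ± 0.424 and 6.41 ± 0.201 FPKM. The groups of all 5 overlapped (limma adjusted p = 1.00 for each).

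In the authors' deposited table, 1 member had a p-value under 0.05 at each time, HNRNPA1L2 at 2 h (p = 0.0463) and HNRNPU-AS1 at 0 h (p = 0.0071). Over all genes 33 were higher and 18 lower of 11703 at 2 h, and 11 higher and 77 lower of 12300 at 0 h. HNRNPU-AS1 had 29.6, 19.2 and 13.3 FPKM in CP25 at 0 h, against 39.5, 19.7 and 18.1 FPKM in vehicle, so its groups overlapped and its libraries numbered 1 were the highest of both. Its log2 change was -0.29 (95% interval -1.12 to 0.54, limma adjusted p = 1.00). The authors' p-values, adjusted here over all genes, called 0 members at either time. At 2 h they covered 35 members, since the deposited test of HNRNPD was marked as failed.

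Whether CP25 changed the course of these mRNAs over the 2 h was tested as the difference of the CP25 effects, 2 h minus 0 h. None of the 36 members was called, as was none of 12183 genes (0.0%, limma adjusted p under 0.05), and 1 member, HNRNPA1L2, against 94 genes in the positive and 59 in the negative direction, had an unadjusted p under 0.05. For HNRNPA1L2 the difference was 0.34 on the log2 scale (95% interval 0.09 to 0.60, limma adjusted p = 1.00), and with the replicate block its adjusted p was 0.271. SRSF4 followed at 0.14 (95% interval -0.03 to 0.31, adjusted p = 1.00, limma), with 85.5% left in CP25 and 77.4% in vehicle. On the negative side stood SRSF9 (-0.10, 107% and 115% left) and HNRNPH3 (-0.07, 128% and 134% left), and both sizes rested on single libraries. With 1 library left out the SRSF9 difference ran from -0.18 without the CP25 library numbered 1 at 0 h to -0.018 without the vehicle library numbered 1 at 0 h. The HNRNPH3 difference ran from -0.14 without the vehicle library numbered 3 at 2 h to -0.0089 without the vehicle library numbered 1 at 2 h. The interval excluded a 1.5-fold difference for 33 of 36 members and a 1.25-fold difference for 12, and with the block for 35 and 32. That block includes the numbers at 0 h, which did not meet the pairing rule.

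The number of members with a positive change in the CP25 comparison depended on single libraries. At 2 h 23 of 36 members had a positive change. This count became 13 without the CP25 library numbered 2 and 33 without the vehicle library numbered 2, with medians of -0.01 and 0.09. Over all genes the median was 0.0056 with every library, and 0.0039 and 0.0096 without these. At 0 h the count of 14 became 24 without the CP25 library numbered 1 and 7 without the CP25 library numbered 3. The median over all genes there was -0.0036 with every library, and -0.0015 and -0.0091 without these. The share of all genes with a positive change was not counted.

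Libraries of the same number deviated together across treatments over these genes, though at 0 h not every library was closest to its own number. The deviation of each library from its group mean, compared between the CP25 and vehicle libraries of the same number, correlated over the 36 members at 0.92, 0.83 and 0.45 for numbers 1, 2 and 3 at 2 h and at 0.92, 0.61 and 0.71 at 0 h. Over all genes the values were 0.35, 0.44 and 0.15 at 2 h and 0.26, -0.01 and 0.12 at 0 h. At 2 h every library correlated highest over the members with the one of its own number. At 0 h CP25 number 3 and vehicle number 2 correlated at 0.68, above the 0.61 of the pair numbered 2, and CP25 number 2 and vehicle number 3 at 0.30. These genes share their libraries, and the values are descriptions. The labels give the number alone and name no batch.

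**Figure D5:**
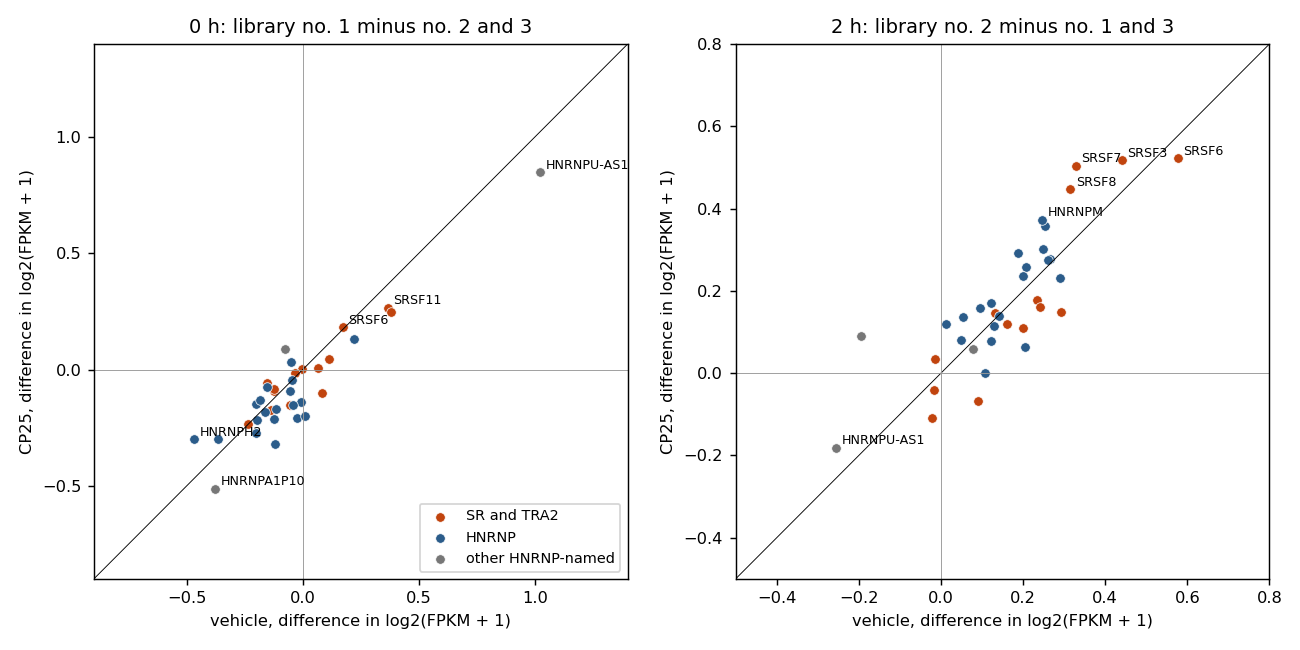
Difference in log2(FPKM + 1) between the library of 1 number and the mean of the other libraries of its group, in CP25 (y axis) against vehicle (x axis), for number 1 at 0 h (left) and number 2 at 2 h (right), with 1 point per member and the line of equality. The points follow the line, and at 2 h SRSF6, SRSF3, SRSF7 and SRSF8 lie farthest up it.

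At 2 h the libraries numbered 2 were the highest of their group in both treatments for 23 of 36 members, where 31.3% of all genes were, and the lowest in both for 1, where 26.5% of all genes were. SRSF6 was higher there than in the other libraries by 0.55 on the log2 scale, SRSF3 by 0.48, SRSF7 by 0.42 and SRSF8 by 0.38, as means of both treatments. SRSF3 had 172, 272 and 209.8 FPKM in CP25 at 2 h and 195, 270.1 and 202 FPKM in vehicle at 2 h, and SRSF7 had 103, 148 and 104 FPKM in CP25 and 114, 138 and 107 FPKM in vehicle. All 19 HNRNP genes were higher in the libraries numbered 2 on this mean, by 0.05 to 0.31, with a median of 0.15. Over all genes the median was 0.011, with an SD between genes of 0.25. The libraries numbered 3 at 2 h were the lowest in both treatments for 14 members, where 12.5% of genes were.

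At 0 h the libraries numbered 1 were the lowest in both treatments for 19 members, where 32.6% of all genes were, and the highest in both for 6, where 24.9% of all genes were. Those numbered 3 were the highest in both for 13, where 19.8% of all genes were. Against the other libraries of their group, as means of both treatments, 18 of 19 HNRNP genes were lower in the libraries numbered 1, with a median of -0.14. Of the SR and TRA2 genes 9 of 14 were lower too, with a median of -0.017, against a median of -0.021 over all genes. This class was spread in both directions, with SRSF11 higher by 0.32, SRSF5 by 0.31 and SRSF6 by 0.18, and SRSF9 at -0.24 and TRA2B at -0.16. SRSF11 had 178, 149 and 147 FPKM in CP25 at 0 h and 193, 151 and 148 FPKM in vehicle at 0 h. HNRNPU-AS1 was higher there by 0.94.

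The range between the means of the 3 numbers had a median over the members of 0.25 at 2 h and 0.18 at 0 h on the log2 scale, against 0.19 and 0.18 over all genes. Without both 2 h libraries numbered 2, the SR and TRA2 median still lay 0.26 below the HNRNP median in CP25 and 0.28 below in vehicle, and without both 0 h libraries numbered 1 it lay 0.29 and 0.22 below. What the numbers stand for was not tested.

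Some of these values share reads with other genes. HNRNPA1L2 and HNRNPA1P10 are copies of HNRNPA1, and HNRNPA1P10, listed at 344 to 697 FPKM, stood at 147% in both treatments, against 145% and 147% for HNRNPA1. HNRNPA1L2, listed at 10.1 to 13.5 FPKM, stood at 118% in CP25 and 91.3% in vehicle. HNRNPUL2 and HNRNPUL2-BSCL2 share exons, and their values are uncertain as a division of common fragments: the level left was 141% in CP25 and 136% in vehicle for HNRNPUL2, against 93.6% and 94.1% for the read-through. By GENCODE 29, 46.2% of the exonic bases of SRSF9 overlap GATC and 36.7% of those of SRSF2 overlap MFSD11 on the opposite strand, as do 15.6% of those of HNRNPU with COX20. SRSF1 shares 56.6% with AC015813.2 on its own strand. Whether counting used strand is not given in the sources used here, so reads from such partners cannot be told apart.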

How the data were processed

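The deposited FPKM values, 1 column per library, came in 1 table for 2 h and 1 for 0 h, with the authors' mean FPKM per group and p-value for CP25 against vehicle. No adjusted column came with that deposited p-value, and it was read as unadjusted. The submitters' processing notes name Bowtie2 2.2.3, Trimmomatic 0.36, CASAVA 1.8.2 and the hg19 build. The program behind the FPKM values was not given in the sources used here, nor was its annotation. No read counts were used, and depth was estimated from the smallest FPKM step of genes of known length. At these depths the least covered protein-coding member, HNRNPA1L2, rests on at least 211 fragments in a library.

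Values were put on the log2(FPKM + 1) scale, and genes averaging at least 1 FPKM in the libraries of a fit were tested with limma 3.58.1 in R 4.3.3 (moderated variances with a mean-variance trend, Benjamini-Hochberg adjustment over all genes at 0.05). Each table gave 1 comparison of CP25 with vehicle, and the difference of the effects was the interaction contrast over 12 libraries. Ratios of 2 h to 0 h are differences of mean log2 values, and percentages left are ratios of mean FPKM. GENCODE 29 (GRCh38) gave gene structures and locations, and 35 of the 36 members were found in it.

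The members and the lists were chosen with earlier results of these data known. Values per library are given, in each class, for the 3 lowest and 3 highest mean ratios of 2 h to 0 h and the 2 most abundant genes, and, in each CP25 comparison, for members past the threshold or, with fewer than 2 per direction, for the 2 per direction with the smallest p. HNRNPU-AS1, SRSF3, SRSF7 and SRSF11 were added after their values were seen. Same-numbered libraries of CP25 and vehicle were checked for pairing through the correlation of their deviations over all genes: all 3 exceeded 0.1 at 2 h (0.35, 0.44 and 0.15), so the numbers pair the libraries there by the rule used, and not at 0 h (0.26, -0.01 and 0.12). The labels give only a number, so this pairing rests on the data. Alternatives were another pseudocount (0.1), other filters on low values (a mean of 5 FPKM, or none), median centring, quantile normalization, no variance trend, the replicate block, the authors' p-values, ratios of mean FPKM and each library left out. A further 2, each leaving out both same-numbered libraries of a time, were chosen after seeing the data.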

Additional observations from a re-analysis of the deposited data

How the results depend on the processing

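No member was called in any of the 3 CP25 comparisons under any alternative that was run. The replicate block left all 3 counts at 0 and moved the members past an unadjusted p under 0.05 to 3 at 2 h, 1 at 0 h and 5 in the difference, with a smallest adjusted p of 0.271 for HNRNPA1L2. Over all genes the block moved unadjusted passes to 428 higher and 386 lower of 11745 at 2 h and 323 and 534 of 12365 at 0 h. In the difference they were 768 in the positive and 516 in the negative direction, of 12183 genes. The block changed no other call on a member. Each library left out kept 0 members called. The sign of single changes was followed only for the 2 members per direction with the smallest p in each comparison. Among these it changed for HNRNPA1P10 at 2 h, whose log2 change of CP25 over vehicle ran from -0.0969 to 0.0191. Other members changed sign too, since the positive count at 2 h went from 23 to 13 without the CP25 library numbered 2. The log2 ratio of 2 h to 0 h with 1 library left out was examined only for the 3 lowest, 3 highest and 2 most abundant genes of each class. Other members, several of them near level, were not examined this way. The ratio changed sign for HNRNPH1, from -0.0258 to 0.0992 in CP25 (below 0 without CP25 number 2 at 0 h, or number 2 or 3 at 2 h). In vehicle the HNRNPH1 ratio ran from -0.0987 to 0.0149 (above 0 without vehicle number 1 at 0 h). For SRSF10 the ratio ran from -0.0766 to 0.0657 in vehicle (above 0 without vehicle number 1 at 0 h or number 3 at 2 h). The median ratio of 2 h to 0 h over the members moved with median centring, to 0.447 in CP25 and 0.377 in vehicle, against 0.121 and 0.0331 without it, since centring shifts every gene of a library. With 1 library left out it ran from 0.0797 to 0.163 in CP25 and from 0.0206 to 0.11 in vehicle. The SR and TRA2 median minus the HNRNP median ran from -0.345 to -0.264 in CP25 and from -0.339 to -0.22 in vehicle. With 3 libraries per group, the interval for the difference of CP25 effects excluded a 1.25-fold change for 12 of 36 members. Whether more depth would narrow it was not tested.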

Other observations

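A pair of hnRNP genes appears under older symbols that the naming rule does not take, HNRPDL (an hnRNP D-like protein) and HNRPLL (an hnRNP L-like protein, known for splicing of CD45 in lymphocytes). HNRPDL had 141.7, 181 and 150.0 FPKM in CP25 at 2 h, against 129.5, 133 and 143 FPKM at 0 h, and 142, 172 and 132 FPKM in vehicle at 2 h, against 139.9, 133 and 129.7 FPKM at 0 h. HNRPLL had 24.4, 25.4 and 23.1 FPKM in CP25 at 2 h, against 18.5, 22.0 and 22.5 FPKM at 0 h, and 24.6, 25.04 and 21.8 FPKM in vehicle at 2 h, against 19.0, 21.0 and 22.9 FPKM at 0 h. The levels left were 117% in CP25 and 111% in vehicle for HNRPDL and 116% and 113% for HNRPLL, and both genes were highest at 2 h in the libraries numbered 2.

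Among the kinases of SR proteins, DYRK1A was left at 16.8% in CP25 and 18.8% in vehicle, CLK4 at 34.7% and 27.3%, CLK2 at 66.5% and 56.5% and CLK3 at 70.6% and 69.4%, and none of the 9 kinase and importer genes was called between CP25 and vehicle at either time (limma, adjusted p under 0.05, with none at an unadjusted p under 0.05). BUD13, an SR-related protein of the retention and splicing complex, was the lowest of its list, at 35.4% in CP25 and 33.3% in vehicle.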
